A study of Mus musculus with 12 samples.

Results

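The Sox genes encode transcription factors that bind and bend DNA through an HMG box, and 10 of them other than Sox10 were followed here in mouse melanoma cells: Sox2, Sox4, Sox5, Sox6, Sox8, Sox9, Sox11, Sox17, Sox18 and Sox21. They were taken by name, 10 of the 21887 protein-coding genes of the mouse gene table. The values are peak lists from chromatin immunoprecipitation with sequencing (ChIP-seq) of 2 cultured lines, line 971, which the labels call Kmt2d WT, and line 493, which they call Kmt2d Mutant. Kmt2d encodes a methyltransferase that deposits H3K4me1 at enhancers. Each line had 1 library for each of 4 histone marks, so 8 lists, and differences between the lines have no replicate check and no test. The labels name melanoma as the disease and cell type of both lines, and give neither the mutation nor the tumours of origin. Because each genotype is 1 line, genotype and line cannot be told apart.

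Sox proteins fall into groups by the sequence of the HMG box. Among the 10, SOX2 and SOX21 are SOXB factors of neural progenitors and stem cells, with SOX2 acting mainly as an activator and SOX21 as a repressor. SOX4 and SOX11 are SOXC factors of neuronal and mesenchymal progenitors, and SOX5 and SOX6 are SOXD factors, long proteins without a classical activation domain that work with SOX9 in cartilage. SOX8 and SOX9 share the SOXE group with SOX10, the factor of the neural crest, melanocytes and glia, and SOX17 and SOX18 are SOXF factors of endoderm and blood vessels. H3K4me3 marks promoters in use, H3K27ac active promoters and enhancers, H3K4me1 enhancers, and H3K27me3 chromatin held by Polycomb; promoters that carry H3K4me3 and H3K27me3 together are called bivalent.

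A gene was marked when a peak lay within 1 kb of either end of its gene model, and coverage is the number of bases under peaks within 50 kb of either end. The lists held 23154 WT and 17987 mutant H3K4me3 peaks, 26415 and 18751 H3K27ac peaks, and 17373 and 3649 H3K4me1 peaks. They also held 25394 WT H3K27me3 peaks. The 1300 regions of the mutant H3K27me3 list were called against the WT H3K27me3 library, per the file name, so that list would hold regions higher in the mutant line and was not compared with the WT list. Of 10 melanocyte markers, H3K4me3 lay at a gene end of 3 in the WT line (Mitf, Pmel and Pax3) and of 5 in the mutant line (Mlana and Sox10 in addition). Tyr, Tyrp1, Dct, Kit and Ednrb had none in either line. Endothelial markers had it at 1 of 8 genes in the WT and 2 of 8 in the mutant line, fibroblast markers at 3 of 6 in each, Schwann cell markers at 3 of 5 in each, keratinocyte markers at 2 of 5 in each and immune markers at 1 of 5 in each. The part of other cells in the values below was not tested.

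H3K4me3 lay at a gene end of the same 8 Sox genes in both lines (Sox2, Sox4, Sox5, Sox6, Sox8, Sox9, Sox18 and Sox21) and of neither Sox11 nor Sox17. Among all protein-coding genes 56.4% had it in the WT line, 56.7% in the mutant line, 55.0% in both and 41.9% in neither, with 1.37% in the WT line alone and 1.68% in the mutant line alone. H3K27ac lay at a gene end of Sox2 in both lines, and of Sox5 and Sox9 in the mutant line alone, so 1 of the 10 had it in WT and 3 in mutant cells, against 28.7% and 19.5% of all genes (12.6% in both). The WT line alone had it at 0 of 10, where 16.1% of all genes did, the mutant line alone at 2 of 10, where 6.84% did, and neither at 7, where 64.4% did. H3K4me1 lay at a gene end of 0 of the 10 in either line, a state shared by 94.0% of all genes, since only 4.21% had it in the WT and 2.27% in the mutant line. WT H3K27me3 lay at a gene end of Sox8, Sox18 and Sox21, 3 of 10, against 9.94% of all genes, and within 50 kb also of Sox6, 4 of 10 against 42.4%.

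Within 50 kb, H3K4me3 covered more bases in the mutant line at 4 genes (Sox2, Sox4, Sox5 and Sox9), fewer at 3 (Sox6, Sox8 and Sox18) and the same number at Sox21. Sox11 and Sox17 had 0 in both. Of all genes, 23.0% had more, 54.5% less and 22.4% had 0 in both. The median mutant minus WT difference was 0 kb over the 10 Sox genes and −0.125 kb over all genes. H3K27ac covered fewer bases in the mutant line at Sox4, Sox5, Sox6 and Sox18 and more at Sox2, Sox8 and Sox9, where 54.1% of all genes had less and 20.3% more. Sox11, Sox17 and Sox21 had 0 in both lines, as 25.4% of all genes did. H3K27ac peaks were short, with a median width of 116 bp in the WT and 107 bp in the mutant list. The order at Sox2, Sox5, Sox8 and Sox9 turned in at least 1 other setting. H3K4me1 covered fewer at Sox4, Sox5, Sox18 and Sox21 and more at none of the 10, where 40.7% of all genes had less and 9.85% more. The other 6 had 0 in both lines, as 49.4% of all genes did. At Sox4, Sox18 and Sox21 the mutant list had 0 where the WT list had peaks, as at 24.5% of all genes, but none of these 3 peaks remained when the WT list was shortened to the length of the mutant list, most significant peaks first.

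**Figure D1:**
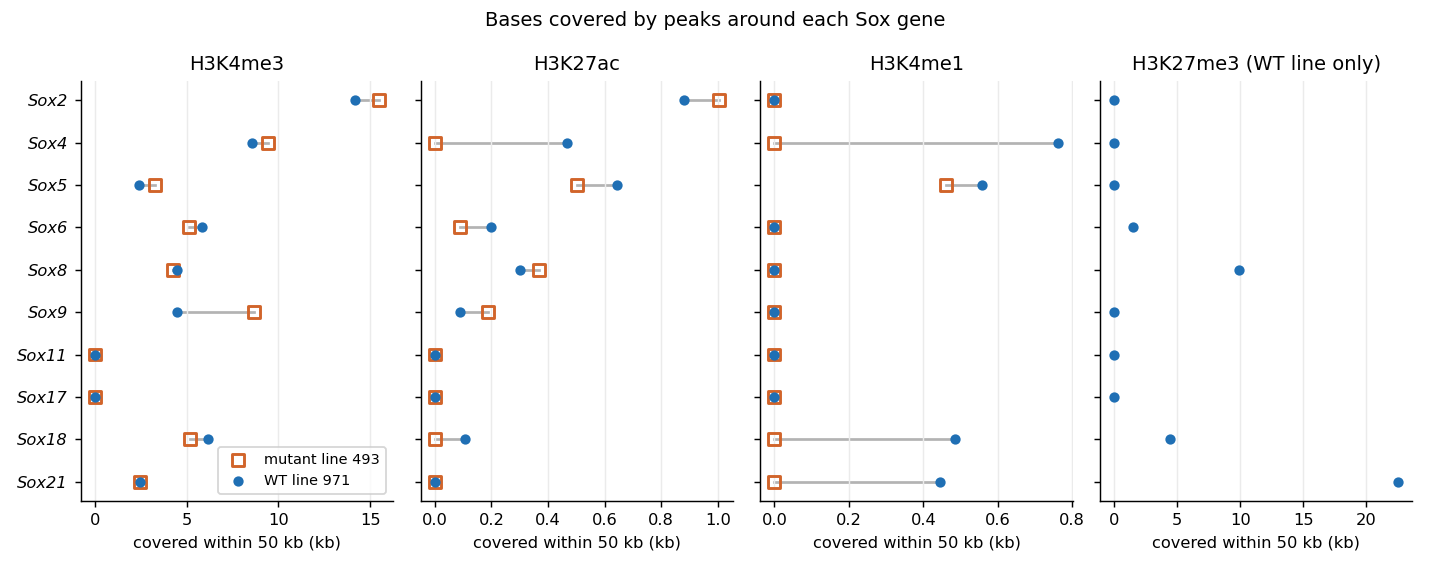
Coverage by peaks, to 50 kb from each gene end (x axis, kb; each panel has its own scale) for the 10 Sox genes (y axis), with the WT line as filled blue circles and the mutant line as open orange squares, 1 library each. Sox9 has the widest H3K4me3 gap, 4.47 kb (WT) against 8.65 kb (mutant), Sox4 has H3K27ac and H3K4me1 in the WT line alone, and Sox21 has the most WT H3K27me3, 22.5 kb.

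Sox2 lay under the widest H3K4me3 domain of the 10 in both lines. The gene (chromosome 3, 34649995 to 34652461, inside the non-coding gene Sox2ot) was covered whole by a WT peak of 9.64 kb (34647899 to 34657541) and a mutant peak of 10.9 kb (34647921 to 34658811). Only 0.350% of WT and 0.167% of mutant H3K4me3 peaks were as wide. A second domain, 10.4 kb above the upper gene end in WT and 10.3 kb in mutant cells, was 3.57 kb and 3.67 kb wide, so the H3K4me3 outline of the locus was nearly the same in both lines. The deposited score was 3100 at the gene in both lists, a value that 19.98% of the WT and 19.5% of the mutant list reach, so it ranks nothing.

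H3K27ac at Sox2 sat inside these domains. WT peaks lay at 2.33 kb and 2.62 kb above the lower gene end, which is the gene start, and at 13.8 kb and 14.9 kb, and 4 of 4 had a mutant peak within 1 kb. The mutant list held 6 peaks, of which those at 0.345 kb and 6.26 kb had no WT counterpart within 1 kb. The peak at 6.26 kb, inside the H3K4me3 domain of both lines, had a −log10 p of 11.3 and was among the strongest 4.12% of mutant H3K27ac peaks. Coverage was 0.881 kb in WT and 1.00 kb in mutant cells. The order turned in the more significant 50% of each list, where the mutant minus WT difference was −0.00900 kb.

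The bases just upstream of the Sox2 start lay wholly under H3K4me3 in both lines, and they are shown with their CG dinucleotides in capitals because H3K4me3 and Polycomb both favour CpG-rich promoters. The sequences here and below are the 250 bases before an annotated start, 5′ to 3′ on the gene's strand, from RefSeq on GRCm38.p6, the assembly of mm10; 7 of the 10 genes had an entry.
Sox2 upstream (chr3:34649745-34649994, plus strand): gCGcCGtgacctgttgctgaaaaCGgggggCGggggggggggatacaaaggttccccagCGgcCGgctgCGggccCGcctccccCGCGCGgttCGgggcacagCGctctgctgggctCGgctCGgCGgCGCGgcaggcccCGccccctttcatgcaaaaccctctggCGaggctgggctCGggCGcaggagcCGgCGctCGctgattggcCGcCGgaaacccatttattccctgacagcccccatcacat
This stretch held 27 CG dinucleotides and was 72.0% G or C. The median over the 21263 promoters of the table was 10.

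Sox21, the other SOXB gene (chromosome 14, 118233233 to 118237030), had H3K4me3 over its upper end, where the gene starts, with 2.44 kb in each line (WT 118235049 to 118237488, mutant 118235237 to 118237676). Its H3K4me3 scores were 1162 and 1119, near the middle of the lists, with 42.8% of WT and 51.8% of mutant peaks at least as strong. An H3K27me3 peak of 15.2 kb (118223753 to 118238927) ran across the whole gene in the WT line. Only 0.0236% of WT H3K27me3 peaks were as wide, and all 2.44 kb of H3K4me3 in each line lay inside it. In all, 15 H3K27me3 peaks covered 22.5 kb within 50 kb. No H3K27ac peak lay within 50 kb in either line, and the nearest were 296 kb away in the WT and 101 kb away in the mutant line. A WT H3K4me1 peak of 0.445 kb lay inside the gene, 1.14 kb from its start, and the mutant list had none within 50 kb. That peak was among the weakest of its list, with 95.6% at least as strong.

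The Sox21 start lay under H3K4me3 of both lines and under WT H3K27me3, each over all 250 bases, and is shown, with CG in capitals, as the 1 start among those with a sequence entry that both marks covered whole.
Sox21 upstream (chr14:118237031-118237280, minus strand): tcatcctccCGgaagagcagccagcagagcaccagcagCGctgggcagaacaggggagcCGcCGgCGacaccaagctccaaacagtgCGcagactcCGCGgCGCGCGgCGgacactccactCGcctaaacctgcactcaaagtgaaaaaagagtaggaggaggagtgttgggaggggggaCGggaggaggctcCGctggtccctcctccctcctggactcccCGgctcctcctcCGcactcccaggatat
It held 17 CG dinucleotides, and 31.4% of all promoters had at least as many.

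Of the SOXC pair, Sox4 had wide H3K4me3 and Sox11 none. Sox4 (chromosome 13, 28948919 to 28953699) was covered whole by H3K4me3, 6.26 kb wide in the WT (28948252 to 28954514) and 6.88 kb in the mutant line (28947829 to 28954709), each with a score of 3100. A second peak 3.99 kb (WT) and 3.96 kb (mutant) above the gene start, at the ends of the non-coding genes Gm46405 and Gm52067, was 2.32 kb and 2.56 kb wide. H3K27ac differed from this. The WT list had peaks inside the gene (28951983 to 28952131, −log10 p 9.26), under the second H3K4me3 domain (28959181 to 28959363, 8.26) and 16.2 kb below the gene (8.73), together 0.466 kb. The mutant list had none within 50 kb, its nearest being 103 kb from the gene. Of all genes, 11.9% had H3K27ac within 50 kb in the WT and none in the mutant line, and Sox4 and Sox18 were the 2 such genes among the 10. A WT H3K4me1 peak of 0.763 kb 31.0 kb below the gene was also absent from the mutant list. It was weak for its list, with 91.1% at least as strong.

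Sox4 is shown because its start lay under H3K4me3 in both lines while H3K27ac nearby was called in 1.
Sox4 upstream (chr13:28953700-28953949, minus strand): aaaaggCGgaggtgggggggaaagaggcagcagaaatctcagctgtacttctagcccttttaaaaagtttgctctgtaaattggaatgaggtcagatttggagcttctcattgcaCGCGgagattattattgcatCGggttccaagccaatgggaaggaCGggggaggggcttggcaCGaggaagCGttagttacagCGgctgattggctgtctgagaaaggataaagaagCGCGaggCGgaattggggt
Its 11 CG dinucleotides were near the median of all promoters.

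Sox11 (chromosome 12, 27334268 to 27342718) had no peak of the 7 lists called against input within 50 kb. The nearest were 578 kb away for H3K27ac, 863 kb for H3K4me3, 918 kb for H3K27me3 and 1172 kb for H3K4me1, all in the WT line, with mutant H3K4me3 also at 863 kb. Of all genes, 16.6% had no peak in these lists within 50 kb, and Sox17 was the other among the 10. The mutant H3K27me3 list held a region of 0.447 kb inside Sox11 (27338707 to 27339153, 5.06-fold over the WT library, −log10 p 6.77), wider than most of its list, where 2.31% were as wide.

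The Sox11 start is shown for contrast with Sox2 and Sox4, since none of the 8 lists covered it.
Sox11 upstream (chr12:27342719-27342968, minus strand): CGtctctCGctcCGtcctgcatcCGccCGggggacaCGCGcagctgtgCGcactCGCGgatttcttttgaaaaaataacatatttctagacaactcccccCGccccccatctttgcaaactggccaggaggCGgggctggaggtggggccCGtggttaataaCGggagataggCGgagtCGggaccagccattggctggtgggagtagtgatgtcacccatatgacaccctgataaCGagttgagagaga
With 17 CG dinucleotides it matched Sox21 and exceeded Sox4, so the marked and unmarked starts were not ordered by CG count.

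**Figure D2:**
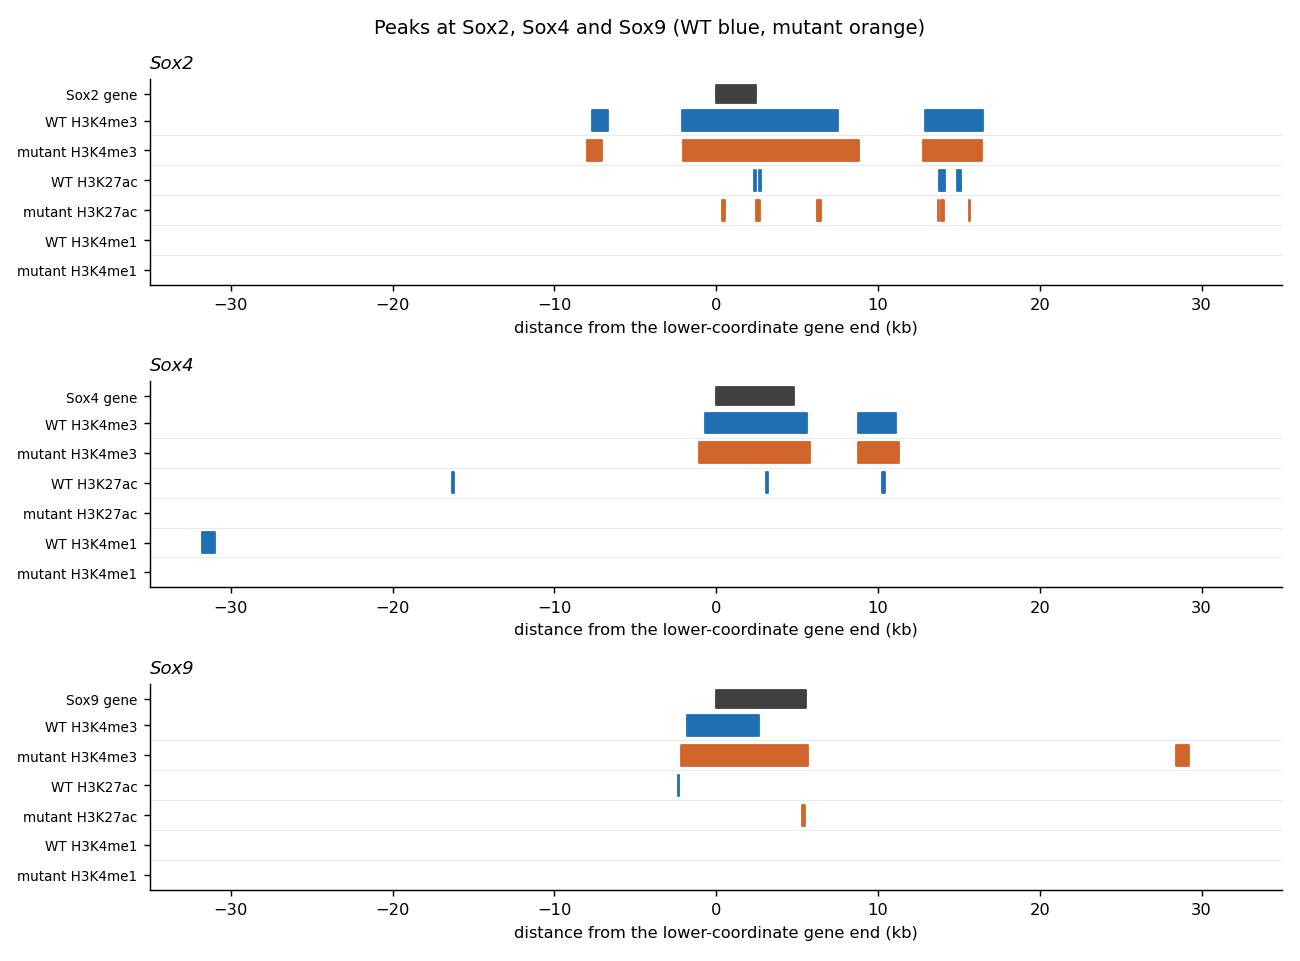
Peaks of 6 lists around Sox2, Sox4 and Sox9, plotted by distance from the lower-coordinate gene end (x axis, kb), with WT peaks in blue, mutant peaks in orange and the gene in dark grey. H3K4me3 has nearly the same outline in both lines at Sox2 and Sox4 and is wider in the mutant line at Sox9 (7.85 kb against 4.47 kb), and Sox4 has H3K27ac in the WT line alone.

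Sox9, a SOXE factor that drives cartilage and glial fates and takes part in melanoma state switching, had the largest difference in H3K4me3 coverage of the 10 within 50 kb. Out to the nearest protein-coding neighbours, at most 500 kb on each side, the differences at Sox6 (−4.81 kb, mutant minus WT) and Sox5 (4.79 kb) were larger than that at Sox9 (3.87 kb). The WT peak of 4.47 kb (chromosome 11, 112780412 to 112784882) covered the lower end of the gene (112782210 to 112787757) and stopped 2.88 kb short of its upper end. The mutant peak of 7.85 kb (112780034 to 112787880) covered the whole gene. The mutant peak was therefore 1.76-fold wider. Of the 8 Sox genes with gene-end H3K4me3, 4 had a wider peak in the mutant line, as 41.1% of all such genes did, and Sox9 alone was past 1.5-fold. Of the 12040 genes with H3K4me3 at an end in both lines, 3.84% had a peak at least 1.5-fold wider in the mutant line. Only 0.662% of mutant H3K4me3 peaks were as wide, against 6.47% in the WT list for the WT peak. A further mutant peak of 0.807 kb with a low score (112) lay 22.9 kb above the gene, at the non-coding gene Gm30562, and coverage was 4.47 kb against 8.65 kb.

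H3K27ac at Sox9 lay at different places in the 2 lists. The WT peak of 88 bp lay 2304 bp below the lower gene end, outside the gene, and the mutant peak of 188 bp lay 34 bp inside the upper end, in the stretch that only the mutant H3K4me3 domain covered. At a distance of 2.5 kb both lines had H3K27ac at a gene end, so the state no longer differed. Sox9 had no annotated start in the sources used here, so neither peak was placed relative to its start. No H3K4me1 or H3K27me3 peak lay within 50 kb in either line.

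Sox8, the other SOXE gene here (chromosome 17, 25565893 to 25570686), had a narrow H3K4me3 peak over its upper end, where the gene starts, at 1.87 kb in WT and 1.58 kb in mutant cells, with scores of 573 and 731. The order of coverage within 50 kb (4.49 kb WT, 4.27 kb mutant) turned in 4 of the other settings, for example with a mutant minus WT difference of 0.176 kb within 20 kb. A WT H3K27me3 peak of 1.40 kb (25569085 to 25570480) lay inside the gene and overlapped 0.595 kb of the WT and 0.614 kb of the mutant H3K4me3 peak. In all, 18 WT H3K27me3 peaks covered 9.88 kb within 50 kb. H3K27ac was 0.300 kb in WT and 0.367 kb in mutant cells, at the neighbouring gene Lmf1 and 25.7 kb and 25.9 kb below Sox8, and none lay on Sox8 itself. Without peaks at the ends of other genes the H3K27ac difference, mutant minus WT, turned from 0.067 kb to −0.030 kb.

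The Sox8 start is shown because H3K4me3 covered all 250 bases in both lines while the nearest H3K27me3 peaks lay on either side of it.
Sox8 upstream (chr17:25570687-25570936, minus strand): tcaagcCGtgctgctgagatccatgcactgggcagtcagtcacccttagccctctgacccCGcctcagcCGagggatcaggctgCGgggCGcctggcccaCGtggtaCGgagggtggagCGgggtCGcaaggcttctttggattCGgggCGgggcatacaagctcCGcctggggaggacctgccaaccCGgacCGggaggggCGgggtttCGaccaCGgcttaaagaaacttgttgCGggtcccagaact
It held 18 CG dinucleotides.

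Sox10, the SOXE gene left out of the set, differed more than its relatives. Its coverage was 6.60 kb in WT and 17.1 kb in mutant cells for H3K4me3, with a gene-end peak in the mutant line alone, and 0.618 kb and 0.089 kb for H3K27ac. WT H3K27me3 lay at its gene end, as at Sox8 and not at Sox9.

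The SOXD genes are long, so that windows at their ends leave out most of the gene. Sox5 (chromosome 6, 143828425 to 144782287) spans 954 kb and Sox6 (chromosome 7, 115470872 to 116040776) 570 kb, and peaks were also counted over the gene body plus 50 kb. At its upper end Sox5 had H3K4me3 of 2.39 kb (WT) and 3.26 kb (mutant). In all the gene held 7 WT and 5 mutant H3K4me3 peaks, and 5 of each overlapped. The WT peaks at 337 and 817 kb from the lower end, with scores of 103 and 221, had no mutant counterpart. The mutant peak near 379 kb, at an end of the non-coding gene Gm38531, was 7.73 kb wide against 3.56 kb (144203391 to 144211116 and 144207489 to 144211045), a ratio of 2.17. That near 246 kb was 2.37 kb against 1.03 kb, a ratio of 2.31. Of 16505 mutant H3K4me3 peaks that overlapped WT peaks, 3.67% were at least 1.5-fold wider than those. Among the 10 genes 3 of 20 were, the pair in Sox5 and that at Sox9.

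In and around Sox5 there were 16 WT H3K27ac peaks (2.62 kb) and 20 mutant peaks (2.98 kb), of which 6 in each list had a peak of the other line within 1 kb. This is near the shares in the whole lists, 30.1% of WT and 38.8% of mutant peaks. The strongest WT peak (144074561 to 144074772, −log10 p 17.1) lay in the H3K4me3 peak near 246 kb and overlapped a mutant peak of −log10 p 7.21. Between 338 and 850 kb from the lower end the WT list had no peak, while the mutant list had peaks at 528, 562 and 629 kb and a group of 3 near 781 kb, among others. At the upper end a mutant peak of 89 bp lay 644 bp from the gene end (−log10 p 9.29), and the nearest WT peak lay 9.65 kb away, so this state also held at 2.5 kb. H3K4me1 had 5 WT peaks (2.27 kb) and 8 mutant peaks (2.61 kb), with none of either within 1 kb of the other line's. Near the ends alone both orders were the reverse, with H3K4me1 at 0.557 kb and 0.461 kb and H3K27ac at 0.643 kb and 0.504 kb. The single start that the promoter table holds for Sox5 lay inside the gene model, at 143947106, with 3 CG dinucleotides and no peak of any list over it.
Sox5 upstream (chr6:143947107-143947356, minus strand): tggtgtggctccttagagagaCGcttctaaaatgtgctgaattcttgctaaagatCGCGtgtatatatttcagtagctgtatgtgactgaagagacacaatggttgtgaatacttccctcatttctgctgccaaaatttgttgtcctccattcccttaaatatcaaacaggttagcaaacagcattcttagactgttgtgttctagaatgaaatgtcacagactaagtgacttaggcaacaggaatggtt

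Sox6 with its gene body had fewer peaks of every active mark in the mutant line, whose whole lists were also shorter. Over the gene plus 50 kb the counts were 8 WT and 4 mutant H3K4me3 peaks (11.8 kb and 7.78 kb), 6 and 2 H3K27ac peaks (0.870 kb and 0.235 kb), and 3 and 0 H3K4me1 peaks (1.12 kb and 0 kb). The whole lists held 23154 WT and 17987 mutant H3K4me3 peaks, 26415 and 18751 H3K27ac peaks, and 17373 and 3649 H3K4me1 peaks. Within 50 kb of the Sox6 ends alone, H3K27ac had 1 peak in each line and H3K4me1 had 0 in both. Near the upper end the H3K4me3 pattern was shared, with a peak of 1.51 kb and 1.32 kb at the end itself and 4.31 kb in 2 WT peaks or 3.79 kb in 1 mutant peak at the non-coding gene Sox6os. The WT peaks without a mutant counterpart within 1 kb lay at 104, 263 and 280 kb from the lower end, with low scores of 64.5, 105 and 279. Between the upper H3K4me3 peaks lay 3 short WT H3K27me3 peaks (1.46 kb in all, at 2.25, 3.44 and 4.16 kb below the gene end), which overlapped no H3K4me3 peak. At a gene-end distance of 2.5 kb Sox6 counted as the fourth gene marked by H3K27me3. A region of the mutant H3K27me3 list (0.151 kb) lay 184 kb below the upper end.

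Of the 12 annotated starts of the 7 genes, 1 at Sox6 held the SOX core motif, AACAAT on either strand, and it held 2 matches, on opposite strands. Of all promoters 8.22% held the motif. It is shown with the matches in capitals because the WT H3K4me3 peak of 1.46 kb (115824658 to 115826114) covered all 250 bases and the mutant peak of 1.63 kb (115822666 to 115824294) none.
Sox6 upstream (chr7:115824711-115824960, minus strand): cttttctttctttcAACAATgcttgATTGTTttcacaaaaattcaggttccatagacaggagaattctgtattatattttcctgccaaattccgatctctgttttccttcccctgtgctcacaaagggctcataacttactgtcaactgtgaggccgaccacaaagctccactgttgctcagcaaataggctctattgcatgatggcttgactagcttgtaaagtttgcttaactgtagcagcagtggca
A mutant H3K27ac peak of 146 bp (115825412 to 115825557) lay under the WT H3K4me3 peak. Both H3K4me3 peaks were weak for their lists, with 68.5% of WT and 71.7% of mutant peaks at least as strong. The AP-1 motif TGANTCA was in none of the 12 and in 6.13% of all promoters.

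**Figure D3:**
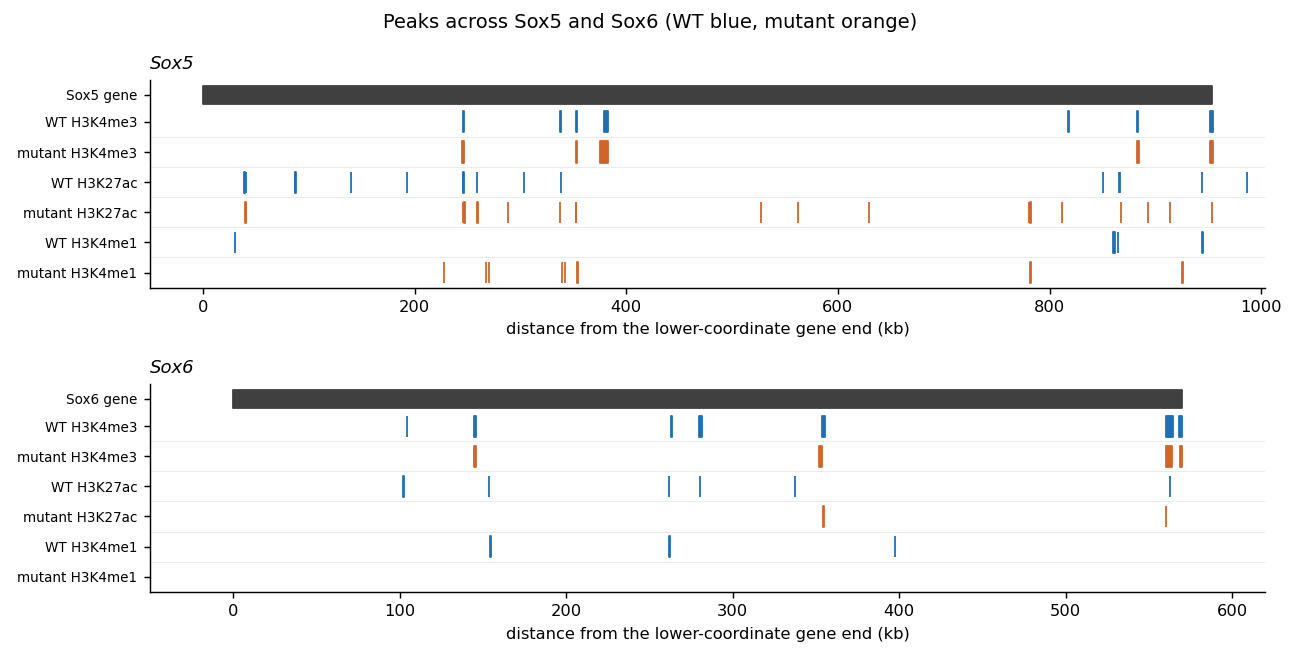
Peaks across Sox5 and Sox6 by distance from the lower-coordinate gene end (x axis, kb), with WT peaks in blue, mutant peaks in orange and the gene in dark grey; short peaks are drawn with a minimum line width. Sox5 holds 16 WT and 20 mutant H3K27ac peaks, of which 6 in each list have one of the other line within 1 kb (30.1% and 38.8% in the whole lists), and Sox6 holds 6 and 2.

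Among the SOXF genes, Sox18 (chromosome 2, 181669837 to 181671640) had overlapping peaks of H3K27me3 and H3K4me3 in the WT line. The marks come from separate libraries, so whether they lie on the same chromatin was not tested. H3K27me3 of 4.01 kb (181668138 to 181672143) covered the whole gene, and H3K4me3 of 1.40 kb in WT and 1.39 kb in mutant cells lay wholly inside it (181670444 to 181671839 and 181670440 to 181671829), with scores of 310 and 375. A WT H3K4me1 peak of 0.485 kb lay 3.71 kb above the gene, overlapping a weak WT H3K4me3 peak of 0.878 kb (score 64.2), and the mutant lists had neither. The remaining H3K4me3 lay at the neighbouring genes Tcea2 and Rgs19, and the single WT H3K27ac peak of 107 bp lay inside the H3K4me3 peak at Rgs19.

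Sox17 (chromosome 1, 4490928 to 4497426) had no peak of the lists called against input within 50 kb, and the nearest were H3K4me3 peaks 74.0 kb away in both lines. The mutant H3K27me3 list held a region of 0.170 kb inside it (4496083 to 4496252, 5.77-fold over the WT library, −log10 p 8.06), among the strongest 2.46% of that list and 1.17 kb from the upper end. Its width was ordinary, with 46.9% of the list at least as wide. Sox11 and Sox17 were thus the 2 of 10 genes with such a region within 50 kb, against 5.77% of all genes. At the 1 kb distance none of the 10 had one at a gene end, where 0.219% of all genes did. No WT H3K27me3 peak lay within 500 kb of either gene.

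Gene-end H3K4me3 of the WT line was also called in the mutant line at 8 of 8 Sox genes, as at 97.6% of all genes that had it. Of these 8 Sox genes with WT H3K4me3 at an end, 3 also had WT H3K27me3 there, against 8.66% of genes with WT H3K4me3 and 4.88% of all genes, and all 3 (Sox8, Sox18 and Sox21) had mutant H3K4me3, as did 93.5% of such genes. H3K27ac lay at none of their gene ends in either line, and their H3K4me3 peaks were 1.40 kb to 2.44 kb wide in the WT line, where Sox2, Sox4 and Sox9 had 4.47 kb to 9.64 kb. Sox5 and Sox6, without H3K27me3 within 1 kb of their ends, had narrow peaks too, at 2.39 kb and 1.51 kb. At Sox6, however, a WT H3K27me3 peak lay 2.25 kb from the upper end and within 1 kb of an annotated start. Of all genes with H3K4me3 at an end, 19.6% had a peak of at least 4 kb in the WT and 16.0% in the mutant line.

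**Figure D4:**
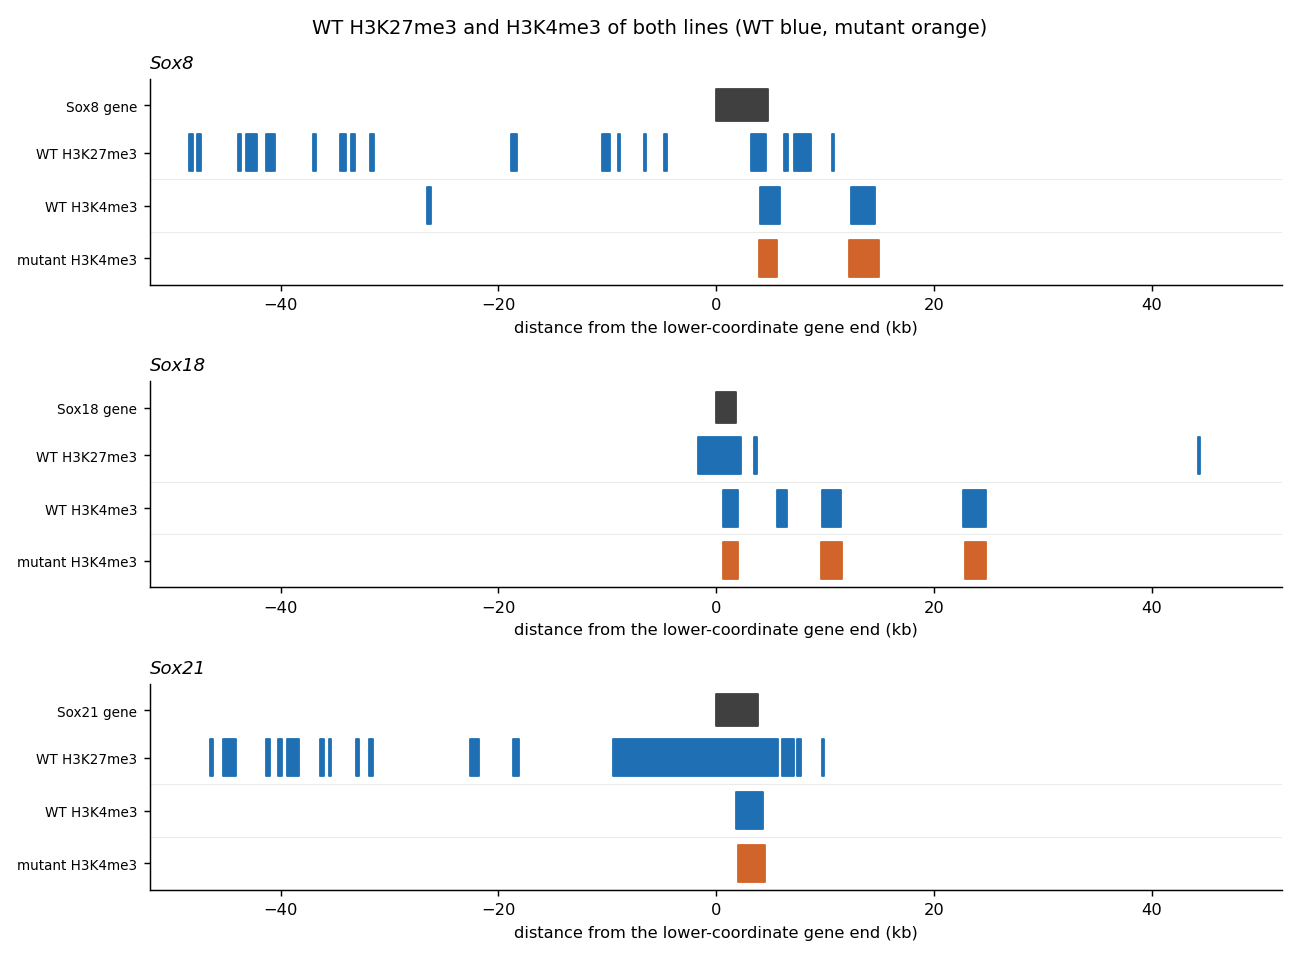
WT H3K27me3 and the H3K4me3 of both lines around Sox8, Sox18 and Sox21 by distance from the lower-coordinate gene end (x axis, kb), with WT peaks in blue, mutant peaks in orange and the gene in dark grey. H3K27me3 covers Sox18 and Sox21 whole and 29.1% of Sox8, and the H3K4me3 peaks at the genes lie inside or beside it.

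Sox2, Sox4, Sox9 and Sox11 lie in stretches poor in genes, and Sox9 in particular is known to be controlled from far away. Peaks were therefore also counted in the territory of each gene, out to its nearest protein-coding neighbours and at most 500 kb on each side, a count added after the values within 50 kb were seen. The Sox9 territory held 18 WT and 13 mutant H3K27ac peaks (2.49 kb and 1.61 kb) and 11 WT and 1 mutant H3K4me1 peaks (5.88 kb and 0.355 kb). That of Sox2 held 17 and 20 H3K27ac peaks (2.75 kb and 2.79 kb) and 9 and 2 H3K4me1 peaks (4.13 kb and 0.677 kb). In the Sox4 territory 14 and 8 H3K27ac peaks (2.29 kb and 0.878 kb) and 3 and 1 H3K4me1 peaks (1.62 kb and 0.329 kb) were found. Sox11 had 0 peaks of these marks in its territory in both lines. H3K4me1 covered fewer territory bases in the mutant line at 6 of the 10 genes, against 27.9% of all genes, and more at 1, Sox5, against 5.46%. For H3K27ac the counts were 4 with less, against 38.5%, and 2 with more, against 19.3%, and for H3K4me3 5 with less, against 44.7%, and 4 with more, against 23.6%. These shares are not matched for the length of the territory. The whole lists held 17373 WT and 3649 mutant H3K4me1 peaks, and 26415 and 18751 H3K27ac peaks. Territories were not counted in lists of equal length, so the part of list length in these counts was not tested. At Sox9 the H3K27ac difference turned with the window, since the mutant line had more within 50 kb, and so did the H3K4me3 difference at Sox2 (19.2 kb WT and 17.4 kb mutant in the territory).

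**Figure D5:**
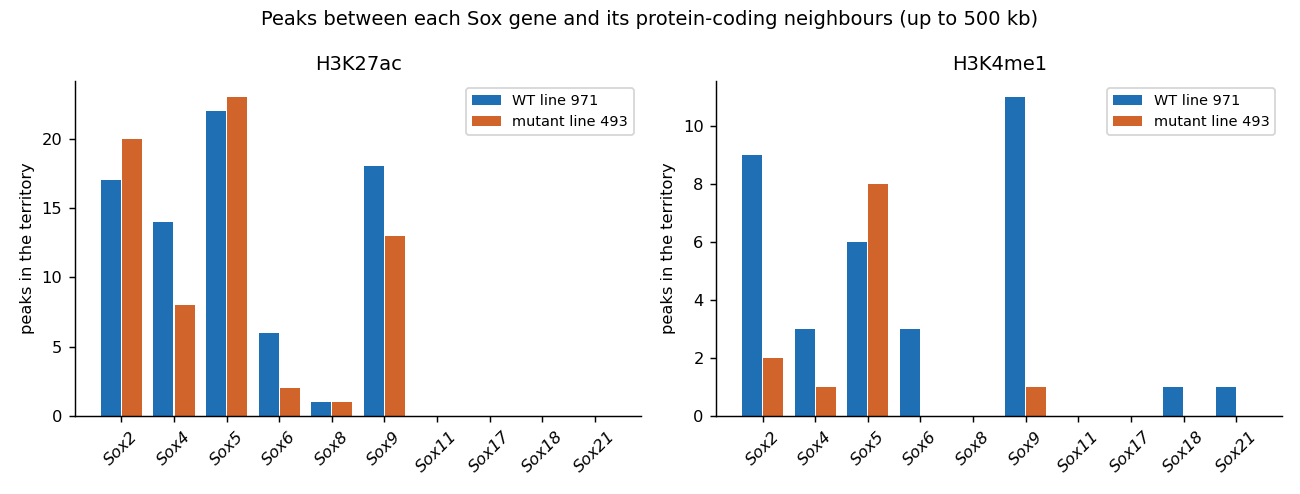
Number of H3K27ac (left) and H3K4me1 (right) peaks (y axis) in the territory of each Sox gene (x axis), with the WT line in blue and the mutant line in orange, 1 library each. H3K4me1 has 11 WT peaks and 1 mutant peak at Sox9 and 9 and 2 at Sox2, while Sox5 has 6 WT and 8 mutant peaks. The whole H3K4me1 lists hold 17373 WT and 3649 mutant peaks.

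Peaks were set against those of the other line over all 10 loci, gene bodies included. A mutant peak lay within 1 kb of 22 of 29 WT H3K4me3 peaks, 12 of 33 WT H3K27ac peaks and 0 of 11 WT H3K4me1 peaks, and over the whole lists these shares were 75.7%, 30.1% and 11.6%. In the other direction 21 of 22 mutant H3K4me3, 12 of 31 H3K27ac and 0 of 8 H3K4me1 peaks had a WT peak within 1 kb, where the whole lists had 92.7%, 38.8% and 47.2%. The 8 mutant H3K4me1 peaks all lay in Sox5.

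Other Sox genes and known partners or targets of Sox factors were read the same way. Of the other 8 Sox genes, H3K4me3 lay at an end of 5 in the WT and 4 in the mutant line (all genes 56.4% and 56.7%), and it covered fewer bases within 50 kb in the mutant line at 6 and more at 1, where 54.5% of all genes had less and 23.0% more. Sox13, a SOXD gene, had 11.2 kb of H3K4me3 in WT and 3.85 kb in mutant cells, with H3K27ac at a gene end in the WT line alone, and so did Sox7, a SOXF gene, for H3K27ac (2.51 kb and 1.63 kb of H3K4me3). Sox30, a testis factor, had H3K27ac at an end in the mutant line alone, and Sox3, a SOXB gene, H3K4me3 at an end in the WT line alone (0.402 kb).

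Chondrocyte genes that SOX9, SOX5 and SOX6 are known to activate had H3K4me3 at an end of 4 of 10 in the WT and 5 of 10 in the mutant line (all genes 56.4% and 56.7%), and H3K27ac at 0 of 10 in each (28.7% and 19.5%). WT H3K27me3 lay at an end of 6 of the 10, against 9.94% of all genes. Col11a2, a fibrillar collagen chain, had H3K4me3 at an end in the mutant line alone (14.0 kb and 14.8 kb within 50 kb). Col2a1, the main cartilage collagen, had H3K4me1 there in the mutant line alone, and Comp, a cartilage matrix protein, in the WT line alone.

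Endothelial genes tied to SOX17, SOX18 and SOX7 had H3K4me3 at an end of 8 of 10 in the WT and 9 of 10 in the mutant line (all genes 56.4% and 56.7%). H3K27ac covered more bases in the mutant line at 7 and fewer at 1, where 20.3% of all genes had more and 54.1% less. Among the 7 the rise was smallest at Vcam1 (0.207 kb WT, 0.269 kb mutant) and largest at Ephb4 (0.287 kb and 0.67 kb). This count was not repeated in other settings. The other marks differed from it. H3K4me3 covered fewer bases at 6 and more at 4 (all genes 54.5% and 23.0%). H3K4me1 covered fewer at 6 and more at 0 (40.7% and 9.85%). WT H3K27me3 lay at an end of 3 (9.94%). Cldn5, a tight junction gene, had H3K4me3 in the mutant line alone, beside a region of the mutant H3K27me3 list at its end (0.309 kb within 50 kb). Vcam1, an adhesion molecule, had 8.55 kb and 4.05 kb of H3K4me3 and H3K27ac at an end in the WT line alone, Ephb4, a receptor of veins, H3K27ac in the mutant line alone, and Nr2f2, a factor of vein identity, H3K4me1 in the mutant line alone. Neural genes tied to SOX2 and the SOXC factors had H3K4me3 at an end of 8 of 10 in each line (all genes 56.4% and 56.7%) and WT H3K27me3 at 5 (9.94%). Among them, Nes had H3K4me1 at an end in the WT line alone and 20.7 kb and 14.9 kb of H3K4me3, and Pou3f2, a partner of SOX2, H3K27ac in the WT line alone (9.27 kb and 8.47 kb of H3K4me3).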

How the data were processed

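The authors called peaks with MACS2 on mm10 after FastQC and MultiQC, per the submitters' processing notes; tool versions and the aligner were not given in the sources used here. Sequencing depth is unknown. Each list came from 1 library. The deposited H3K4me3 lists are named for MACS version 1 and carry a score, read here as −10 × log10 p, of at least 50. The other deposited lists carry a fold enrichment (a ratio over the control) and −log10 p and q values. The lowest −log10 q was 1.01 in the mutant H3K27me3 list and at least 1.30 in the others. Controls were each line's own input, per the file names, except for mutant H3K27me3. These values describe or rank peaks within a list. The 4 input libraries are not analysed here.

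Peaks on the 19 autosomes, X and Y were kept, as 1-based positions. Gene models came from a RefSeq table of GRCm38.p6 without strand or exons, and starts and sequences from its promoter table (7 of 10 genes matched). Coverage was computed with Python 3.11.15, numpy 2.4.6 and pandas 2.3.3, and tested on simulated peaks against counting base by base. The members and lists were chosen with earlier results of these data known. All 10 members are named; of the other lists, at most 4 genes whose gene-end state differed, by the H3K4me3 difference. Apart from Sox5, the promoters shown, the width comparison and the territories were chosen after values were seen. Percentages of all genes are the background, not a test. A plan to compare the HMG boxes was not carried out, since protein sequences were not used here. Alternatives were other windows and gene-end distances, annotated starts, lists of equal length and the more significant 50% of each list.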

Additional observations from a re-analysis of the deposited data

How the results depend on the processing

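With 1 library per line and mark, no value has a replicate error. No paired analysis was possible because each group has 1 library and no result comes from a test. At a gene-end distance of 2.5 kb, WT H3K27ac marked 3 members in place of 1, WT H3K4me1 1 in place of 0 and the mutant H3K27me3 list 1 (Sox17) in place of 0. With annotated starts, which 7 members have, H3K4me3 marked 5 in each line and WT H3K27ac 0. Mutant H3K27ac marked 2 there, Sox2 and Sox6. Sox5, which it marked by gene end, was not among them, and Sox9 had no annotated start. WT H3K27me3 marked 3 there, with Sox6 in and Sox18, which had no annotated start, out. In the more significant 50% of each list H3K4me3 marked 6 in the WT and 4 in the mutant line, with Sox6 and Sox21 in the WT line alone. There 1 member had more H3K27ac and 1 less H3K4me1 in the mutant line. In lists of equal length 0 had less H3K4me1 in the mutant line and 1 (Sox5) more; with gene bodies, and in territories, 1 also had more. In territories 5 had less H3K4me3 and 4 a mutant H3K27me3 region. In all, 77 counts stayed within 1.5 times those reported, some of those given here among them. For single genes, the sign of the mutant minus WT difference was kept in 44 of 70 H3K4me3 values and opposite in 5. In the other 21 the difference was 0 as reported, in the other setting or in both. These counts were 38, 8 and 24 for H3K27ac, and 18, 3 and 49 for H3K4me1. Opposite signs for H3K4me3 were at Sox2 (territory, −1.81 kb) and Sox8. The H3K4me1 differences at Sox4, Sox18 and Sox21 rest on weak WT peaks that lists of equal length do not hold.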

Other observations

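The 10 genes were compared by their coverage in the 8 lists, as the Euclidean distance between vectors of log2(kb + 0.1). For none of the 10 was the nearest of the others the gene of the same Sox group. Each had only a single group partner among the others, so this count says little about the groups. The vectors also held the mutant H3K27me3 list, which was called against the WT library, and peaks at neighbouring genes. Sox2 and Sox9 were nearest to each other (distance 3.58), as were Sox6 and Sox8 (3.04), Sox18 and Sox21 (3.05) and Sox11 and Sox17 (1.02). Sox4 was nearest to Sox9 (3.92) and Sox5 to Sox4 (4.33). Over all protein-coding genes on other chromosomes, the nearest were Rad54l for Sox2 (0.389), Id2 for Sox4 (0.322), Wdr75 for Sox5 (0.543), Cga for Sox6 (0.260), Rnf169 for Sox8 (0.393), Arhgef26 for Sox9 (0.476), Pabpc4 for Sox18 (0.671) and Agxt for Sox21 (0.746). For Sox11 and Sox17, whose vectors are nearly empty, 5 and 6 genes were tied, olfactory receptor genes such as Olfr784 and Olfr1019 first among them. With 8 values per gene and so many genes, close matches are common, and they say nothing of function.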
